A study of Gallus gallus with 14 samples.

Results

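Genes known from retinal bipolar cells, 7 in all, were followed across 14 chick retina libraries. They were chosen by symbol, as factors and signalling genes of this cell type: VSX1, OTX2, RGS7, TMEM215, TRPM1, PRKCA and CABP5. Of the 18631 genes in the deposited table, 6 are members; CABP5, a calcium-binding protein of bipolar terminals in the mouse, has no row under that symbol and was not analysed here. All 6 passed the filter on low values (mean level 1 CPM or more across all libraries).

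The birds were wild type White Leghorn chickens. The age given is 3 days for control and lens libraries alike. Retinas of 7 eyes served as controls, and 7 came from eyes behind a -10 dioptre lens, fitted at that age and worn for 1 day. The labels give neither the handling of the control eyes nor whether each retina is from a different bird, so p-values measure the spread between these samples, part of which may be technical. Titles in the lens group carry the numbers 1 to 4 and 12 to 14. Those in the control group carry 10, 17 to 19 and 21 to 23, and each title has a letter L or R. The lens libraries are treated below as a set of 4 (lens 1 to 4) and a set of 3 (lens 12 to 14). This split was made with an earlier reading of these data known, in which the lens ranges differed. The p-values that use it are therefore not those of a split fixed beforehand.

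Bipolar cells are the interneurons that carry signals from photoreceptors to amacrine and ganglion cells. ON bipolar cells respond to light increments through the metabotropic glutamate receptor mGluR6, whose G protein keeps the cation channel TRPM1 closed in the dark and is switched off by RGS7 together with GNB5. OFF bipolar cells instead use ionotropic glutamate receptors. VSX1 and OTX2 are homeodomain transcription factors: VSX1 is needed for the late differentiation of cone bipolar cells in the mouse, and OTX2 for photoreceptor and bipolar fates, with continued expression in both cell types and in pigment epithelium.

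Values are CPM (counts scaled to 1000000 reads) as deposited, not divided by gene length, so levels of different genes are not compared. Totals of 27.7 to 49.3 M reads per library (M, 1000000, median 37.3) were inferred from the CPM step of 1 read. They were 27.7 to 40.2 M in control, 34.1 to 43.4 M in lens 1 to 4 and 40.4 to 49.3 M in lens 12 to 14. Every lens 12 to 14 library was thus deeper than every control, and the part of depth in the differences was not tested. Reads on the listed genes came to 8.63 to 15.3 M (median 11.6), and the CPM of a library summed to 298680 to 319250. The members' values correspond to between 708 and 7880 reads in every library, except for TMEM215, with 39.9 to 125. Reads from the W chromosome, which female birds carry, were present in 3 of 7 control libraries, 3 of 4 lens 1 to 4 libraries and 1 of 3 lens 12 to 14 libraries. Retinal markers were present (summed photoreceptor markers 1264 to 1848 CPM, summed amacrine markers 471 to 601 CPM), and the pigment epithelium list summed to 20.1 to 31.1 CPM with 3 of its 8 genes past the filter. In the red blood cell list only SLC4A1 had a row, and it stood under 0.1 CPM in every library.

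In short, VSX1 and OTX2 rose in lens 1 to 4, RGS7 rose by a smaller amount and TMEM215 fell, while TRPM1 and PRKCA did not pass the test. VSX1 and OTX2 were called in all 19 alternative fits, RGS7 in 8 and TMEM215 in 9 of them. The highest limma adjusted p among those fits was 0.00876 for VSX1 and 0.0487, close to the threshold, for OTX2. Of all tested genes 13.4% were called in that comparison. In lens 12 to 14, and over all 7 lens libraries, 0 of the 6 were called against control, as were 0% of all tested genes, so these counts equal the background. A gene is called where limma, fitted across all 11005 genes that passed the filter, gave a Benjamini-Hochberg adjusted p under 0.05. Log2 fold changes were taken from log2(CPM + 1), a scale that makes changes of low genes such as TMEM215 look smaller than they are. In bulk retina, more cells of a type and more RNA per cell cannot be told apart.

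**Figure D1:**
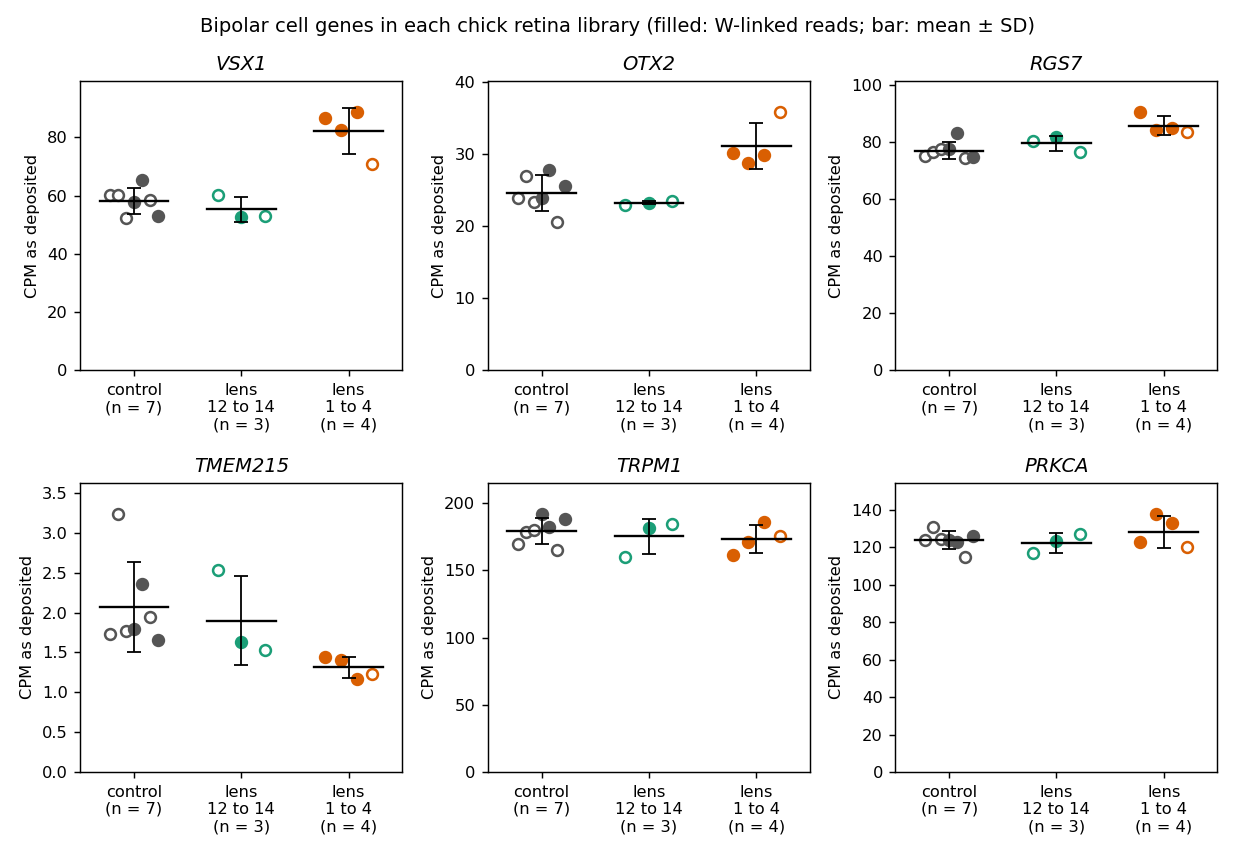
CPM of each member in each library (y axis, from 0), by set (x axis); each point is a library, filled where W-linked reads were present, and bars give the mean ± SD. For VSX1, OTX2 and RGS7 the 4 lens 1 to 4 points lie above all 7 control points, for TMEM215 they lie below, and for TRPM1 and PRKCA they overlap them.

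VSX1 lies on chromosome 3 of GRCg6a (16154379 to 16157984, minus strand, per the deposited table), and no other listed gene overlaps it. In the 7 control libraries its level ran from 52.4 to 65.5 CPM with a median of 58.4. Lens 1 to 4 held 86.6, 82.5, 88.7 and 71.0 CPM, in the order of their numbers. Lens 12, 13 and 14 held 60.2, 52.7 and 53.0 CPM. The 4 libraries of the first lens set were therefore the 4 highest of all 14, lens 4 being the nearest to the controls, and the other lens set fell inside the control range.

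The VSX1 mean was 82.2 ± 7.89 CPM in lens 1 to 4 (SD, n = 4) against 58.1 ± 4.48 CPM in control (n = 7). This is a log2 fold change of 0.49 (SE 0.071; limma, adjusted p = 0.00163), or 1.41-fold with a 95% interval of 1.26 to 1.56. An exact permutation test over libraries (two-sided, 330 splits) gave p = 0.00303, the smallest that 4 against 7 libraries allow. Lens 1 to 4 lay wholly above control for 7.05% of all tested genes. By p, VSX1 ranked 44 of 11005 genes. In lens 12 to 14 the mean was 55.3 ± 4.28 CPM (n = 3), with a log2 fold change of -0.07 (95% interval -0.23 to 0.08; limma, adjusted p = 0.981) against the same 7 controls.

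Set directly against each other, the lens sets differed in VSX1 by a log2 fold change of 0.56 (SE 0.087; limma, adjusted p = 0.0143), and all 4 libraries of the first set lay above all 3 of the second. The smallest p of an exact permutation test here is 0.0286, which VSX1 reached. Lens sets that did not overlap were common, at 15.5% of all tested genes in the higher and 7.57% in the lower direction. The limma call rests in part on lens 14: without that library the adjusted p was 0.0780 at a log2 fold change of 0.53. Over all 7 lens libraries VSX1 averaged 70.7 ± 15.6 CPM, a log2 fold change of 0.25 against control (limma, adjusted p = 0.325; exact permutation p = 0.0810), and 5 of the 7 exceeded the median control. The 7 lens libraries spread more widely than the controls, with the 4 of one set above and the 3 of the other within the control range.

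VSX1 in lens 1 to 4 was also set beside control within the splits that the data and titles offer. Among libraries with W-linked reads, the 3 lens 1 to 4 libraries held 82.5 to 88.7 CPM and the 3 controls 53.0 to 65.5 CPM. Among those without, lens 4 held 71.0 CPM and the 4 controls 52.4 to 60.1 CPM. The mean log2 difference from control was 0.55 with such reads and 0.30 without, the latter resting on lens 4 alone. By title letter, the mean log2 difference from control was 0.38 for L (2 lens and 3 control libraries) and 0.60 for R (2 and 4). The numbers 1 to 4 occur in lens libraries only, so an effect of the lens and of whatever those numbers stand for cannot be told apart within that set.

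OTX2, on chromosome 5 (55982200 to 55989609, plus strand), had a control range of 20.5 to 27.8 CPM with a median of 23.9. Lens 1 to 4 held 30.1, 28.8, 29.9 and 35.8 CPM, and lens 12 to 14 held 22.98, 23.3 and 23.5 CPM. Again the 4 libraries of the first set were the highest of all, but here lens 4, the lowest of the 4 for VSX1, was the highest. The second lens set lay within the control range and was tightly grouped.

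OTX2 rose from 24.6 ± 2.45 CPM in control (n = 7) to 31.1 ± 3.18 CPM in lens 1 to 4 (n = 4), a log2 fold change of 0.33 (SE 0.082; limma, adjusted p = 0.0197; exact permutation p = 0.00606), or 1.26-fold (95% interval 1.11 to 1.42). It was also higher than in lens 12 to 14 (23.2 ± 0.239 CPM, n = 3), by 0.40 on the log2 scale (SE 0.083; limma, adjusted p = 0.0294). That second call was lost without lens 1, 3, 12, 13 or 14 (adjusted p 0.0596 to 0.110), without the filter on low values (0.0559) and with the title letter in the model (0.0565). Within libraries with W-linked reads the mean log2 difference of OTX2 between lens 1 to 4 and control was 0.20 (3 against 3), and among those without it was 0.58 (lens 4 against 4 controls). By title letter it was 0.42 for L and 0.25 for R. Lens 12 to 14 against control gave -0.07 (95% interval -0.25 to 0.11; limma, adjusted p = 0.981). Since OTX2 is also a photoreceptor gene, the photoreceptor list was set beside it: 0 of 10 tested photoreceptor markers passed in lens 1 to 4 against control by limma (median log2 fold change 0.04, all tested genes 0.04), and between the lens sets 1, the cone phosphodiesterase subunit PDE6C, was higher in lens 1 to 4 (0.25; adjusted p = 0.0348) with a list median of 0.20, where that of all genes was 0.04. Over all tested genes 13.4% were called in the first and 5.01% in the second comparison, so both counts of 10 lie near the background. For the pigment epithelium list 0 of 3 tested genes passed in either comparison, at medians of 0.18 and 0.25. Its sum was 21.5 to 28.6 CPM in control, 21.2 to 31.1 CPM in lens 1 to 4 and 20.1 to 22.5 CPM in lens 12 to 14. Summed, the photoreceptor list held 1389 to 1760 CPM in control, 1455 to 1848 CPM in lens 1 to 4 and 1264 to 1562 CPM in lens 12 to 14. The part of photoreceptors or pigment epithelium in the OTX2 difference was not tested.

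RGS7, the regulator that speeds the switching off of the mGluR6 G protein, lies on chromosome 3 (35978482 to 36233353, plus strand). Controls ran from 74.3 to 83.0 CPM (median 76.6). Lens 1 to 4 held 90.5, 84.1, 84.8 and 83.6 CPM and lens 12 to 14 held 80.3, 81.6 and 76.4 CPM. All 4 libraries of the first set lay above the highest control, lens 4 by less than 1 CPM, and that control, number 21, stood apart from the other 6.

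The mean of RGS7 rose from 77.0 ± 2.96 CPM (n = 7) to 85.7 ± 3.20 CPM (n = 4), a log2 fold change of 0.15 (SE 0.046; limma, adjusted p = 0.0390; exact permutation p = 0.00303). The call was lost without control 10, 17, 18, 19, 22 or 23 or lens 1, 2 or 3 (adjusted p 0.0505 to 0.120), and once the W-linked level entered the model (0.0600) or median-of-ratios scaling (0.118). The mean log2 difference was 0.14 both among libraries with W-linked reads and among those without, and 0.14 for L and 0.17 for R. For RGS7 the lens sets differed by 0.11 (95% interval -0.02 to 0.23; limma, adjusted p = 0.261). Over all 7 lens libraries RGS7 averaged 83.0 ± 4.34 CPM, 6 of 7 above the control median, at a log2 fold change of 0.11 (limma, adjusted p = 0.270; exact permutation p = 0.0117).

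TRPM1, the channel at the end of the mGluR6 cascade, lies on chromosome 10 (6125923 to 6179883, plus strand). Its level was 165 to 192 CPM in controls (median 180.4), 161, 171, 186 and 176 CPM in lens 1 to 4, and 160.0, 182 and 184 CPM in lens 12 to 14. The 3 sets overlapped. The log2 fold change against control was -0.05 in lens 1 to 4 (95% interval -0.16 to 0.06; limma, adjusted p = 0.569) and -0.04 in lens 12 to 14 (95% interval -0.16 to 0.09; adjusted p = 0.993). For lens 1 to 4, a change of TRPM1 as large as that fitted for VSX1 lies outside the interval.

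PRKCA, protein kinase C alpha, which marks rod bipolar cells in the mouse, lies on chromosome 18 (7312180 to 7451096, minus strand). The spans of APOH and CEP112, listed on the other strand, overlap it with at most 5.09 CPM in any library. PRKCA stood at 115 to 131 CPM in controls (median 124), 123, 138, 133 and 120.0 CPM in lens 1 to 4, and 117, 123 and 127 CPM in lens 12 to 14. The sets overlapped, with lens 2 and lens 3 above the highest control. The log2 fold change in lens 1 to 4 was 0.05 (95% interval -0.06 to 0.16; limma, adjusted p = 0.545).

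TMEM215, a transmembrane protein listed here as a bipolar marker, lies on chromosome Z (67289121 to 67291416, minus strand), of which male birds carry 2 copies. Controls ran from 1.66 to 3.24 CPM (median 1.79). Lens 1 to 4 held 1.45, 1.402, 1.17 and 1.23 CPM, all below the lowest control, and lens 12 to 14 held 2.54, 1.63 and 1.53 CPM.

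TMEM215 fell from 2.07 ± 0.565 CPM (n = 7) to 1.31 ± 0.133 CPM (n = 4), a log2 fold change of -0.39 (SE 0.12; limma, adjusted p = 0.0487; exact permutation p = 0.0121). The call was lost without control 18, 19, 21 or 22 or any 1 of lens 1 to 4 (adjusted p 0.0568 to 0.125), once the W-linked level entered the model (0.0692), and without the filter on low values (0.0834). Within controls, the 3 libraries with W-linked reads held 1.66 to 2.35 CPM of TMEM215 and the 4 without held 1.74 to 3.24 CPM, and within lens 1 to 4 the 3 libraries with such reads held 1.17 to 1.45 CPM and the other 1.23 CPM. The lens sets differed by -0.31 (limma, adjusted p = 0.191).

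**Figure D2:**
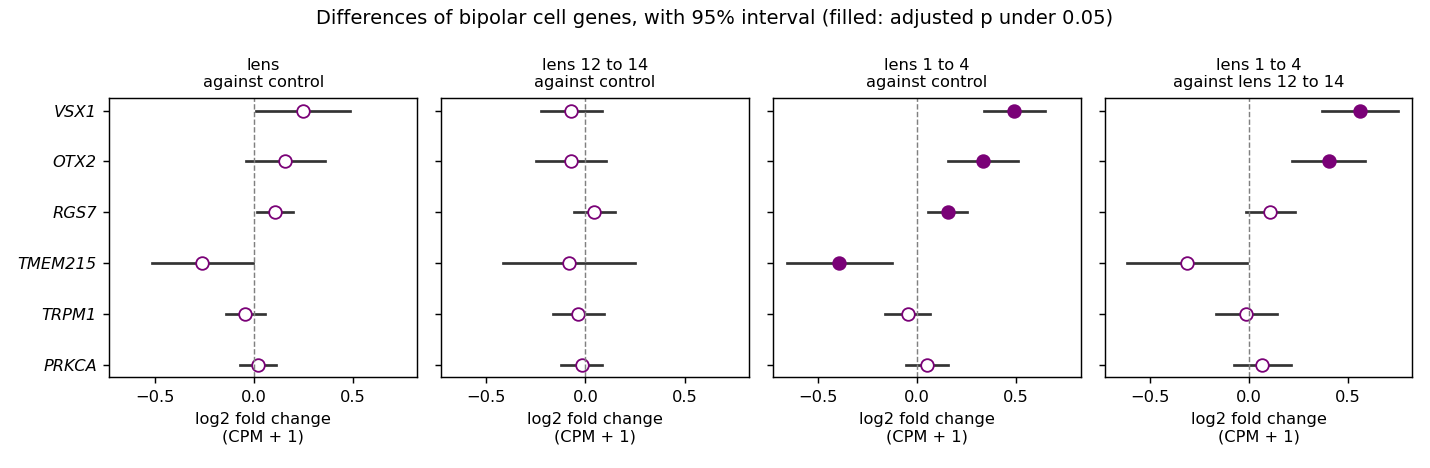
Log2 fold change of each member on the log2(CPM + 1) scale (x axis) in the 4 comparisons, with its 95% interval; filled points have an adjusted p under 0.05. The filled points are VSX1, OTX2, RGS7 and TMEM215 in lens 1 to 4 against control, and VSX1 and OTX2 between the lens sets.

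Read against all genes tested, lens 1 to 4 against control called 1480 of 11005 genes, 13.4%, of which 9.4% of all tested genes were higher and 4.05% lower. Of the 6 members, 3 were higher, 1 lower and 2 did not pass, with a median log2 fold change of 0.10 where that of all tested genes was 0.04. With median-of-ratios scaling 748 of 1487 called genes were higher, in place of 1034 of 1480, and with quantile scaling 777 of 1530. Groups that did not overlap were found for 7.05% of tested genes in the higher and 2.73% in the lower direction, and for 3 and 1 of the 6 members. Leaving out lens 1, 2 or 3 lowered the count over all genes to 869, 911 or 724.

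Between the lens sets, limma called 551 genes, 5.01% of those tested (3.53% higher in lens 1 to 4 and 1.47% lower), and 2 of the 6 members, both higher. Non-overlap of the sets was found for 15.5% of tested genes in the higher and 7.57% in the lower direction and for 3 and 1 members. With other scalings 222 of 453 (median-of-ratios) and 236 of 439 (quantile) called genes were higher, against 389 of 551. The count of 551 became 95, 268 and 103 without lens 1, 2 and 3, and 170, 165 and 9 without lens 12, 13 and 14. For lens 12 to 14 against control limma called 0% of genes and 0 members, with 571 of 11005 genes and 0 of 6 members at an unadjusted p under 0.05 and 0 members by the exact test. Over all 7 lens libraries it called 0% and 0 members, with 1619 of 11005 genes and 3 of 6 members (VSX1, RGS7 and TMEM215) at an unadjusted p under 0.05 and 1 member, RGS7, by the exact test. The exact test was not run over all genes, so its counts of members have no background to be read against. The comparisons with control share their 7 control libraries and are not independent.

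**Figure D3:**
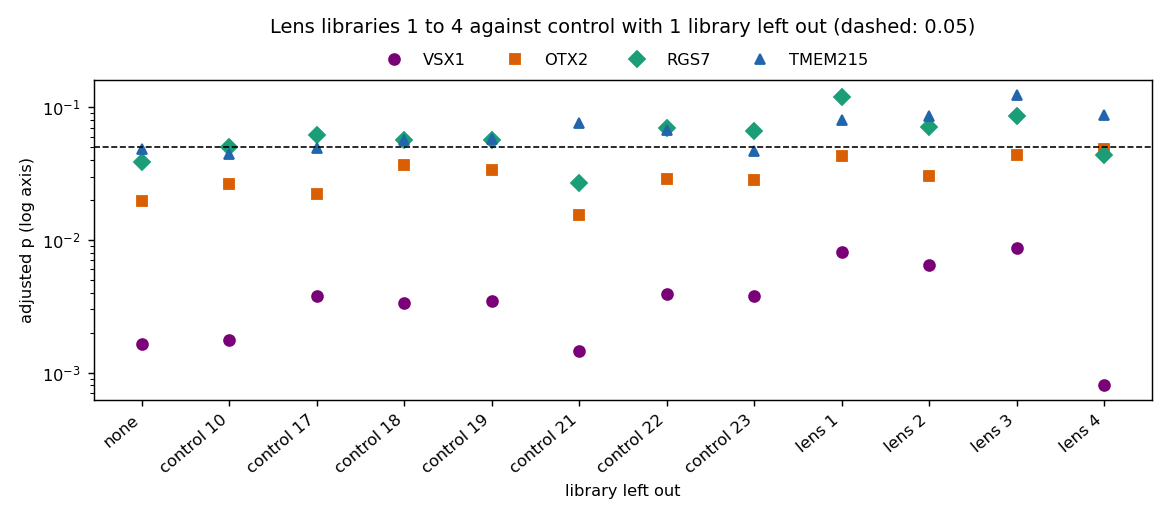
Adjusted p (y axis, log axis) of the 4 called members in lens 1 to 4 against control, with no library or 1 library (x axis) left out; the dashed line is 0.05. VSX1 and OTX2 stay under the line in all 11 such fits, and RGS7 and TMEM215 lie above it in 9 and 8 of them.

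To see VSX1 apart from the scaling of libraries, its CPM was divided by that of other bipolar genes in the same library. The ratio of VSX1 to TRPM1 was 0.282 to 0.359 in controls, 0.404 to 0.537 in lens 1 to 4 and 0.287 to 0.376 in lens 12 to 14. That to PRKCA was 0.420 to 0.532, 0.591 to 0.705 and 0.417 to 0.515, and that to RGS7 was 0.677 to 0.799, 0.850 to 1.05 and 0.646 to 0.750, in the same order. For these 3 ratios all lens 1 to 4 libraries lay above all other libraries (exact permutation p against control = 0.00303 for each, the smallest possible). The 3 ratios share the VSX1 values, which had already separated these sets. They are therefore not independent of that result or of each other, and ratios of other genes were not examined. The ratio to OTX2 overlapped, at 2.07 to 2.84 in controls and 1.98 to 2.97 in lens 1 to 4 (exact permutation p = 0.227). That overlap rests on lens 4, at 1.98, and the lens 1 to 4 median of this ratio, 2.87, lay above the highest control. VSX1 thus moved relative to the signalling genes TRPM1, PRKCA and RGS7. A shift relative to OTX2 was not detected, with lens 4 the only lens 1 to 4 library not above every control.

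**Figure D4:**
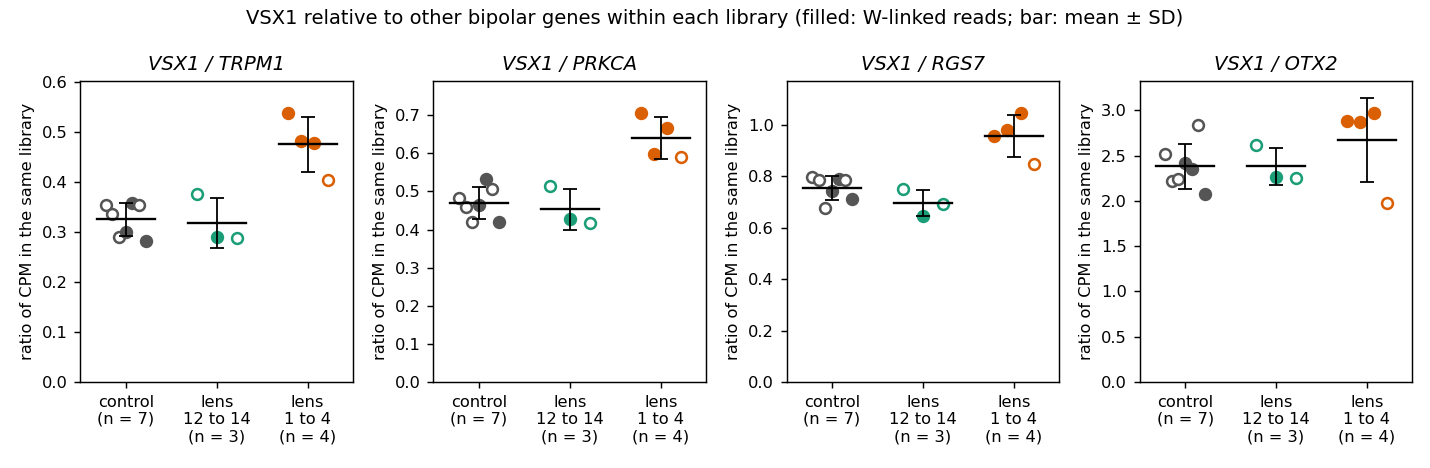
Ratio of VSX1 CPM to that of TRPM1, PRKCA, RGS7 or OTX2 within each library (y axis, from 0) by set (x axis); points are libraries, filled where W-linked reads were present, and bars give the mean ± SD. The lens 1 to 4 points stand above the rest in the first 3 panels, and in the OTX2 panel lens 4, at 1.98, is the lowest of all.

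The wider lists of bipolar genes held 50 symbols, 43 of them in the table and 39 tested. In lens 1 to 4 against control 6 rose, 6 fell and 27 did not pass, or 30.8% called where 13.4% of all tested genes were, and the median log2 fold change was -0.05. The lists were put together with earlier results of these data known, so this share is a description. The part of other retinal cells in the levels of the listed genes was not tested. Without control 17, 22 or 23 or lens 2 or 3 the 12 calls became 7, 6, 7, 5 or 4, and without the filter on low values 7. VSX1, OTX2, CDH8 and CDH9 were called in all 19 alternatives, with a limma adjusted p of at most 0.04545 for CDH8 and 0.02273 for CDH9.

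Among 11 tested transcription factors 3 rose and 0 fell in lens 1 to 4: VSX1, OTX2 and NEUROD4, a basic helix-loop-helix factor of retinal neurogenesis, which rose from 1.32 ± 0.358 to 2.22 ± 0.611 CPM (log2 fold change 0.47; limma, adjusted p = 0.0389). LHX4, a LIM homeodomain factor, stood at 0.22 (limma, adjusted p = 0.263) without passing. The share called was 27.3%, beside 13.4% of all tested genes. The median over the list was 0.03, close to that of all genes. PRDM8 and IRX5 lay under the filter.

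In the mGluR6 cascade GNB5, the obligate partner of RGS7, rose from 80.6 ± 6.35 to 94.5 ± 4.45 CPM (log2 fold change 0.23, SE 0.062; limma, adjusted p = 0.0269). RGS7BP, the membrane anchor of that complex, fell from 39.1 ± 4.55 to 31.5 ± 1.88 CPM (-0.30; adjusted p = 0.0365), with control 10 at 29.9 CPM below all 4 lens libraries. With RGS7, 2 rose, 1 fell and 7 did not pass of 10 tested, at a median of -0.06. The share called was 30%, beside 13.4% of all tested genes. NYX, the extracellular protein nyctalopin that the ON cascade needs, was at -0.20 (adjusted p = 0.209) and GNAO1, the G protein alpha subunit, at 0.12 (adjusted p = 0.339). GPR179 lay under the filter, and GRM6, GNB3 and PCP2 have no row under these symbols and were not analysed here.

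In the list named for OFF bipolar glutamate receptors, 1 of 6 genes fell and none rose by limma. That is 16.7% of the list, near the 13.4% of all tested genes called in this comparison. The part of other retinal cells in their levels was not tested. GRIK1, a kainate receptor subunit, fell from 149.9 ± 9.47 to 131 ± 3.66 CPM (-0.19; limma, adjusted p = 0.0347), with control 10 (130.1 CPM) inside the lens range. The AMPA receptor subunits GRIA1 and GRIA4 stood at -0.22 (adjusted p = 0.0590) and 0.10 (adjusted p = 0.147). Between the lens sets GRIK1 was lower in lens 1 to 4 by 0.26 on the log2 scale (log2 fold change -0.255; limma, adjusted p = 0.0235), a call lost without lens 1, 2, 3, 12, 13 or 14 (adjusted p 0.0559 to 0.09998).

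Among 7 tested kinase, calcium and release genes, CPLX3, a complexin of ribbon synapses, rose from 4.46 ± 0.664 to 6.08 ± 0.871 CPM (0.38; limma, adjusted p = 0.0357). CACNA1D, an L-type calcium channel subunit, fell from 245 ± 9.63 to 215 ± 8.74 CPM (-0.19; adjusted p = 0.0149), all 4 lens libraries below all controls. CPLX4 (-0.20; adjusted p = 0.0615) and CACNA2D4 (0.23; adjusted p = 0.130) did not pass. The share called was 28.6%, beside 13.4% of all tested genes. Among the other bipolar markers 3 of 5 fell and none rose by limma: TMEM215 and the cadherins CDH9, from 9.84 ± 0.597 to 7.03 ± 0.920 CPM (-0.44, SE 0.082; adjusted p = 0.00531), and CDH8, from 99.9 ± 4.19 to 86.3 ± 3.76 CPM (-0.21, SE 0.047; adjusted p = 0.0136). KCNG4, a potassium channel subunit, was at -0.30 (adjusted p = 0.121) and the transcription factor FEZF2 at -0.08 (adjusted p = 0.644). For these other markers the share called was 60%, all lower, where 4.05% of all tested genes were called lower. The cadherins mark bipolar types in the mouse, and no source used here ties them to these cells in the chick.

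Both cadherins were also lower than in lens 12 to 14, CDH9 by a log2 fold change of -0.56 (limma, adjusted p = 0.0264) and CDH8 by -0.31 (adjusted p = 0.0220). The CDH9 call was lost without lens 1, 3, 12, 13 or 14 or without the filter, and the CDH8 call without lens 1, 3, 12 or 14 (adjusted p 0.0543 to 0.0999). In lens 12 to 14 against control 0 of the 39 genes passed by limma.

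The calls of the wider lists differed in how far they rest on 1 library. In lens 1 to 4 against control CACNA1D was lost without lens 3 (limma, adjusted p = 0.0586) and GNB5 without lens 2 or 3 (0.0813 and 0.0848). NEUROD4 was lost without control 17, 19, 21, 22 or 23 or lens 2, 3 or 4, under both other scalings and without the filter on low values (adjusted p up to 0.106). RGS7BP was lost without any control but number 10 or without lens 2, 3 or 4 (up to 0.0992), GRIK1 without any control but number 10 or without lens 1, 2 or 3 (up to 0.0945), and CPLX3 without control 17, 22 or 23 or lens 2, 3 or 4, and with quantile scaling (up to 0.0931); the last 3 were also lost without the filter.

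**Figure D5:**
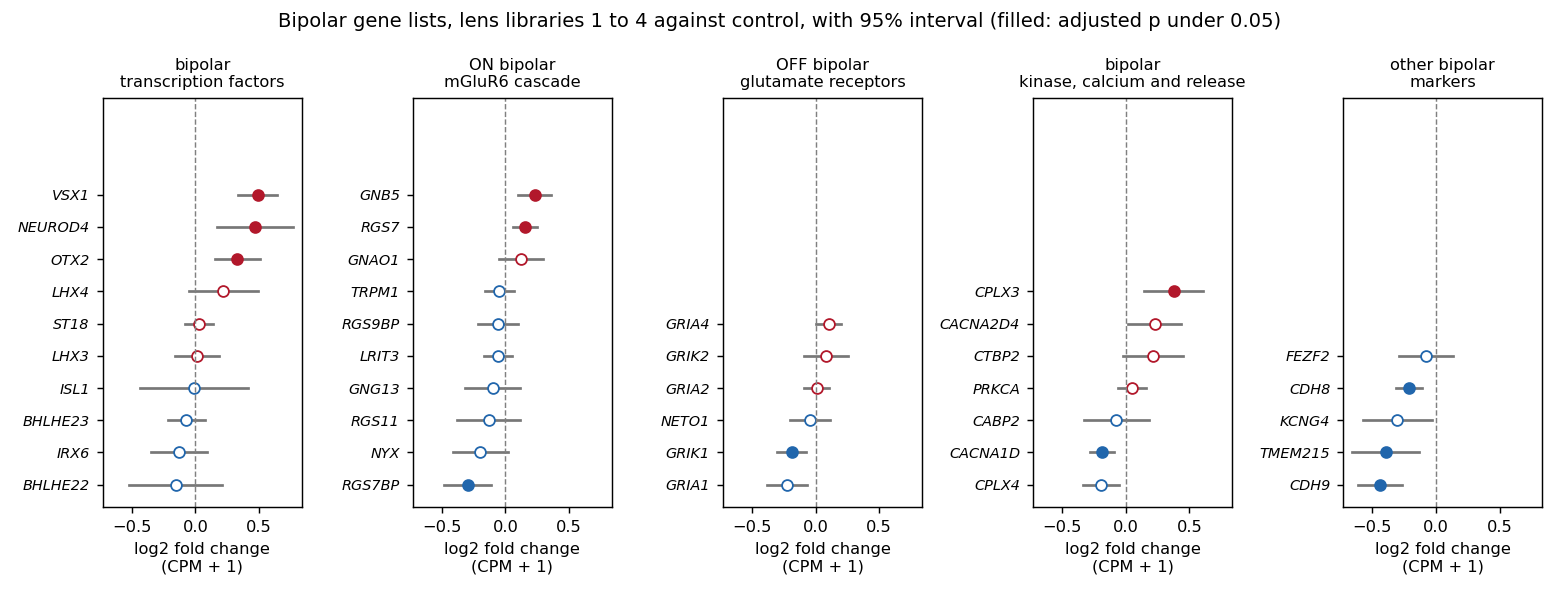
Log2 fold change on the log2(CPM + 1) scale (x axis) with 95% interval for 38 of the 39 tested genes of 5 bipolar lists, lens 1 to 4 against control; red points are above 0, blue below, filled where the adjusted p was under 0.05. The filled points in the first panel are all above 0 and those in the last panel all below.

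Markers of other retinal cells were counted in the same comparison, in which 13.4% of all tested genes were called, 9.4% higher. The horizontal list shares a gene with the bipolar lists, so these are not fully separate. By limma, 0 of 10 photoreceptor, 0 of 8 amacrine, 0 of 6 horizontal, 0 of 5 Mueller glia, 0 of 3 pigment epithelium, 0 of 2 microglia and leukocyte and 0 of 2 oligodendrocyte genes passed. Of 7 ganglion cell genes 2 rose, SLC17A6, a glutamate transporter (0.26; adjusted p = 0.0205), and RBPMS2, an RNA-binding protein (0.47; adjusted p = 0.0445). With lists of this size, counts of 0 lie near that background, and the ganglion cell share was 28.6%, beside 30.8% of the bipolar lists. The median log2 fold change was 0.18 for the pigment epithelium, 0.13 for the amacrine, 0.10 for the Mueller glia, 0.10 for the microglia and leukocyte, 0.09 for the ganglion cell, 0.04 for the photoreceptor, 0.03 for the horizontal and 0.01 for the oligodendrocyte list, where that of all tested genes was 0.04. The part of ganglion cells in the bipolar results was not tested, and a gene that did not pass is not shown to be stable.

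By Pearson's r of log2(CPM + 1) over the 14 libraries, the 5 genes most like VSX1 were LOC107053919 (0.96), UIMC1 (0.95), FAXC (0.94), LOC107052014 (0.94) and FRMPD4 (0.94), and the 3 least like it DHTKD1 (-0.95), SPATA5 (-0.93) and NCK2 (-0.92). These values rest in part on the step between lens 1 to 4 and the other libraries and are a description. Over the 10 libraries other than lens 1 to 4, UIMC1 had r = 0.87 and the other 4 most like VSX1 0.60 to 0.72. The 3 least like it had -0.60 to -0.56 there. Over the 7 control libraries alone UIMC1 had r = 0.84 and the other 4 of the first group 0.44 to 0.60, while the 3 of the second had -0.58 to -0.46. FRMPD4, a postsynaptic scaffold protein, averaged 90.3 CPM in control, 108 CPM in lens 1 to 4 and 85.9 CPM in lens 12 to 14, and DHTKD1, a mitochondrial dehydrogenase subunit, 12.97, 7.48 and 12.9 CPM. Of the members, RGS7 ranked 331 and OTX2 880 of 11004 genes by their r with VSX1 (0.81 and 0.72; over controls 0.58 and 0.38), while PRKCA had 0.37 and TRPM1 -0.30. TMEM215 had -0.42 over the 14 libraries but 0.54 over the controls. Over the 10 libraries other than lens 1 to 4 the members' r with VSX1 was 0.67 for TMEM215, 0.37 for OTX2, 0.31 for RGS7, -0.24 for PRKCA and -0.37 for TRPM1, so the place of RGS7 and OTX2 near VSX1, and the sign for TMEM215 and PRKCA, rest on lens 1 to 4.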

How the data were processed

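Total RNA of 14 chick retinas, depleted of ribosomal RNA and made into stranded libraries, was sequenced, per the labels' protocols. STAR, Partek and GRCg6a are named in the submitters' processing notes, without roles or versions. Gene counting and its use of strand are not given in the sources used here. The values the authors deposited were read as CPM plus a constant of 0.0001. Within 0.05 of 1 read's worth, 93.9% to 95.1% of low values (up to 20 reads) were whole, too few for a count model. The table held 0 columns of other samples.

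From these, log2(CPM + 1) was tested with limma 3.58.1 in R 4.3.3 (mean-variance trend, two-sided) on the 11005 genes averaging 1 CPM or more, fitting only the libraries compared. The limma fit was tested on simulated data. Exact permutation tests used group means of log2(CPM + 1). Coordinates are those of the deposited table; its chromosome sequences were named through symbols shared with the GRCg7b RefSeq table (15419 matched).

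Members, lists and the split of the lens libraries were chosen with earlier results of these data known. Named were all members; genes of the wider lists that passed in any comparison, and the 2 next by p in lens 1 to 4 against control; called markers of other cells (at most 3 a list); and the 5 genes most and 3 least like VSX1. For 1 transcription factor of the lists, counted in the totals, no value is reported here. CEP112 and APOH were named for their position, SLC4A1 and PDE6C after their values were seen. Alternatives were another pseudocount, no filter, 2 scalings, 2 covariates, 1 fit of all sets, robust variance and each library left out. No sequence of these genes was used here.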

Additional observations from a re-analysis of the deposited data

Results flagged for a closer look

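The spread of 24 bipolar genes was examined within the control libraries, all lens libraries and lens 1 to 4, 72 groups in all, and in 5 of them the highest or lowest library stood far from the others, where chance alone gives about 5% of groups. Among controls RGS7 reached 82.98 CPM in number 21, the nearest control being at 77.7 CPM. Control 10 was low for RGS7BP, at 29.87 CPM with the nearest at 38.3 CPM, and for GRIK1, at 130.1 CPM with the nearest at 148 CPM. Both genes were also lower in lens 1 to 4 than in control. Among lens libraries TMEM215 reached 2.538 CPM in lens 12, the nearest being 1.63 CPM, and NYX reached 11.34 CPM in lens 14, the nearest being 8.99 CPM.

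For 5 genes the difference between the lens sets itself passed limma's test (log2 fold change, lens 1 to 4 minus lens 12 to 14): VSX1 at 0.5614 (adjusted p = 0.0143), OTX2 at 0.4021 (0.0294), GRIK1 at -0.255 (0.0235), CDH9 at -0.5624 (0.0264) and CDH8 at -0.3092 (0.0220). They are 12.8% of the 39 tested genes of the bipolar lists, beside 5.01% of all tested genes. All 5 calls were lost without lens 14, which left 9 of the 551 calls over all genes. The sets were unequal in W-linked reads, present in 3 of 4 and 1 of 3 libraries. Once the W-linked level entered the model, VSX1 stood at 0.52 and OTX2 at 0.46 (adjusted p = 0.00629 for both).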

How the results depend on the processing

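For the 6 members, 406 of 444 recomputed differences kept direction and side of the threshold, 29 lost the call and 9 changed sign, all of the latter near 0 and not called. Most of the 444 belong to differences not called to begin with, which had no call to lose. In lens 1 to 4 against control the call was lost in 11 of 19 alternatives for RGS7 and 10 of 19 for TMEM215. Between the lens sets it was lost in 7 of 15 for OTX2 and 1 of 15 for VSX1. VSX1 in lens 1 to 4 against control ran from 0.45 to 0.56 and OTX2 from 0.26 to 0.37, both called in all 19 alternatives. PRKCA over all lens libraries turned to -0.000317 with median-of-ratios scaling and ran from -0.00243 to 0.0373 with 1 library left out. In lens 12 to 14 against control PRKCA ran from -0.0460 to 0.0140, TRPM1 from -0.0726 to 0.0288 and TMEM215 from -0.233 to 0.00912 with 1 left out. Between the lens sets TRPM1 turned to 0.0109 with quantile scaling and ran from -0.0775 to 0.0239.

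Counts moved more. Over all lens libraries, 1 fit of all 3 sets called 78 genes in place of 0, and leaving out 1 library 0 to 15. In lens 1 to 4 against control, leaving out 1 library gave 724 to 1636 genes, 2 to 3 members and 4 to 11 genes of the wider lists, the W-linked covariate 2 members, and no filter 7 genes of the wider lists. In lens 12 to 14 against control leaving out 1 library gave 0 to 2 genes. Between the lens sets no filter gave 261 genes and 1 member, the W-linked covariate 1446 genes, the title letter 278 genes and 1 member, 1 fit of all sets 906 genes, and leaving out 1 library 9 to 807 genes and 0 to 2 members. The cause of these shifts was not tested. No paired analysis was possible because control and lens libraries share no numbers. Reads were few for TMEM215 (39.9 to 125 per library), NEUROD4 (30.9 to 110) and FEZF2 (29.0 to 67.9).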
